A study of Mus musculus with 8 samples.

Results

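Closely paired coding genes are neighbours that do not overlap and leave at most 1000 bp of DNA between them. By that rule, 2000 of the 19442 gaps between neighbouring coding genes of the mouse autosomes and X were close gaps (10.3%), and 3619 of 21631 coding genes flanked at least 1 of them. The median close gap was 250 bp long, with a range of 1 to 999 bp. Each gap was widened by 200 bp on both sides, so that the boundaries of both genes were included, and the widened gaps covered 1.49 Mb in all. Strand was known for 17274 of the coding genes (79.9%). It divided the close gaps into 562 head-to-head gaps, at which both genes start, 444 head-to-tail gaps, at which 1 gene starts and the other ends, and 424 tail-to-tail gaps, at which both genes end. The orientation of the other 570 close gaps was not assigned, among them all 22 on chromosome 18.

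When 2 genes are transcribed away from each other out of a short stretch of DNA, the stretch between them can act as a bidirectional promoter. Such promoters are frequent in mammals, are usually rich in CpG dinucleotides and poor in TATA boxes, and often serve genes that every cell uses, such as those for DNA repair, mitochondrial translation and RNA processing. A pair of immune genes of this kind, Psmb9 and Tap1, lies in the major histocompatibility complex and encodes a catalytic subunit of the immunoproteasome and a chain of the peptide transporter that loads class I molecules. An active promoter is kept free of nucleosomes, which makes it accessible to the transposase used in ATAC-seq, the assay that tags open chromatin. Where 2 genes end side by side, the annotation places the ends of both transcripts, and no start of either gene, at the gap.

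Open chromatin was mapped in 2 ATAC-seq samples of unstimulated mouse dendritic cells that carry CD8, the class known for cross-presenting antigen and called cDC1. No agent was added to these cells, and the labels name both the spleen and a cell line as their source. The other 6 samples of the series are chromatin immunoprecipitations of IRF3 after poly(I:C), IRF5 after a CpG oligonucleotide and IRF9 after interferon-beta, with 2 samples each and 90 min of stimulation. They were not analysed here. The labels do not say whether these replicates were grown separately, and a difference between them may be technical.

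Replicate 1 had 50950 peaks over 8.71 Mb and replicate 2 had 58319 over 11.2 Mb. The median summit held 17 reads in replicate 1 and 22 in replicate 2, and the weakest listed summits held 7 and 9. Overlapping peaks of the replicates were merged into 44365 shared regions, and a gap was called accessible when at least 1 bp of a shared region fell into it after widening. A merged region can reach a gap through the peak of 1 replicate, so some accessible gaps hold a peak of that replicate alone. Of the 44328 shared regions on the autosomes and X, 1160 touched a close gap (2.62%) and 631 a head-to-head gap (1.42%). Of 12 marker genes of cDC1, 7 had a shared region within 1000 bp of an end, among them Itgax, Flt3, Irf8 and Cadm1, and Batf3, Clec9a, Cd8a, Zbtb46 and Itgae had none. Markers of other cells with such a region numbered 1 of 5 for T cells, 2 of 6 for B cells, 2 of 6 for fibroblasts, 1 of 5 for erythroid cells, 0 of 6 for neutrophils and 0 of 6 for natural killer cells. Of all coding gene ends, 23.2% had a shared region from 1000 bp outside to 200 bp inside the gene. That share is per end, and the share of all coding genes by the marker rule is not given here. A region near an end can lie at the start of a neighbour, as at the end of Xcr1, a counted marker, where Fyco1 starts.

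The DNA between 8 pairs of genes shows what these gaps look like. The first 3 pairs hold immune genes, namely Psmb9/Tap1 (chr17:34187331-34187555), Rnf31/Irf9 (the last 250 bases of the gap, chr14:55603735-55603984) and Cgas/Mto1 (chr9:78443238-78443478). Idh1/Pikfyve (chr1:65186480-65186639), Mmab/Mvk (chr5:114444074-114444263) and Mrps12/Sars2 (chr7:28741822-28741956) had some of the highest enrichments. Duox2/Duoxa2 (chr2:122298741-122298899) and Bhmt2/Dmgdh (chr13:93674303-93674435) are head-to-head pairs of thyroid and liver genes with no peak in either replicate. All but Rnf31/Irf9, which is head-to-tail, are head-to-head gaps. The sequences are from RefSeq, build GRCm38.p6, written 5′ to 3′ on the plus strand, and capitals mark every CCAAT box (CCAAT) and GC box (GGGCGG) found on either strand.
Psmb9/Tap1: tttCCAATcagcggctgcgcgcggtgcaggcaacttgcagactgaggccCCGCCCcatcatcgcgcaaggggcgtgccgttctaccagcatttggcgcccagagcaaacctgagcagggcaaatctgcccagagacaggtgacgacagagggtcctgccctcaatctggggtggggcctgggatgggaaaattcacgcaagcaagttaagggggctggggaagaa
Rnf31/Irf9: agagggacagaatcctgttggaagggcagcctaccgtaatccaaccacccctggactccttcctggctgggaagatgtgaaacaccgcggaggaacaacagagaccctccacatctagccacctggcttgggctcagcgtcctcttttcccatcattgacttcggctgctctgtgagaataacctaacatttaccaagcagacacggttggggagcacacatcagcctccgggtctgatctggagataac
Cgas/Mto1: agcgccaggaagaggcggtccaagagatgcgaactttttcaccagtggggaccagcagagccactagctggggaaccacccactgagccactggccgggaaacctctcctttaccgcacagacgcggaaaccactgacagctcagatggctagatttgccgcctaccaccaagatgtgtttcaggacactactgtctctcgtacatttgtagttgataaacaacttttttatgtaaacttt
Idh1/Pikfyve: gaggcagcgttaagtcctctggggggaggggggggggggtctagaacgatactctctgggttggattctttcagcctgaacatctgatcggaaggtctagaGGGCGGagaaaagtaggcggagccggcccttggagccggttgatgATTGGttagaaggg
Mmab/Mvk: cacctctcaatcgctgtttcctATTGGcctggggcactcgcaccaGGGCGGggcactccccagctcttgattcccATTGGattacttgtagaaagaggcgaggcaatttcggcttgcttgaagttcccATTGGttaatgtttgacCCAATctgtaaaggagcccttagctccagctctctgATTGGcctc
Mrps12/Sars2: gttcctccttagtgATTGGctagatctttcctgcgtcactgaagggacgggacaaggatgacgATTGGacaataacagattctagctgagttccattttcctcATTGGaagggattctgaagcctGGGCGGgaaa
Duox2/Duoxa2: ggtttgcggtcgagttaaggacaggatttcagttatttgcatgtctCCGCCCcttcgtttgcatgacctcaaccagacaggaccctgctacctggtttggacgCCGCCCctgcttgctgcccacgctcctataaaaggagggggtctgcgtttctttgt
Bhmt2/Dmgdh: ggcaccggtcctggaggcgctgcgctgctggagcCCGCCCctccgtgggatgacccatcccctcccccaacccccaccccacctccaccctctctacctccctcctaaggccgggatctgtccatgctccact

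The Mmab/Mvk gap holds 5 CCAAT boxes and 1 GC box within 190 bp, and the Mrps12/Sars2 gap holds 3 CCAAT boxes and 1 GC box within 135 bp. The Psmb9/Tap1 and Idh1/Pikfyve gaps hold 1 of each. The Duox2/Duoxa2 gap holds 2 GC boxes and the Bhmt2/Dmgdh gap holds 1, although neither was accessible. In the Cgas/Mto1 gap and in the 250 bases before Irf9, the letters of neither box occur. A match describes the letters of these windows and is not evidence that a factor binds there. For 432 of the 562 head-to-head gaps, the whole gap lay within a RefSeq promoter sequence of 1 of its genes.

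Orientation separated the close gaps by accessibility. Of the 562 head-to-head gaps, 512 held a shared region (91.1%), with a peak in 90.7% in replicate 1 and in 92.3% in replicate 2. Among coding starts that flank no close gap, the share was 38.4%, in a window from 1000 bp outside to 200 bp inside the gene. Of the 444 head-to-tail gaps, 209 were accessible (47.1%), with 48.4% in replicate 1 and 49.5% in replicate 2. Of the 424 tail-to-tail gaps, 10 were accessible (2.36%), with 3.30% in replicate 1 and 2.36% in replicate 2, and the share among coding stops that flank no close gap was 3.56%. Head-to-head gaps were thus nearly all accessible, and gaps between gene ends were nearly all without a peak in both replicates. The gaps whose orientation was not assigned fell between these classes, with 245 of 570 accessible (43.0%).

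Over all 2000 close gaps, 976 held a shared region (48.8%), against 49.4% over gaps of any length, whose windows are mostly much longer. Among the ends of all coding genes, 23.2% had a shared region from 1000 bp outside to 200 bp inside the gene, and 20.5% of the ends that flank no close gap. In the same window a shared region lay at 42.5% of all coding starts of known strand and at 4.94% of all coding stops. The head-to-head share stands far above that of other starts and the tail-to-tail share is near that of other stops. These windows do not have the same length as the widened gaps, each head-to-head gap contains 2 starts, and no test was made, since a single group of 2 samples allows none between conditions.

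**Figure D1:**
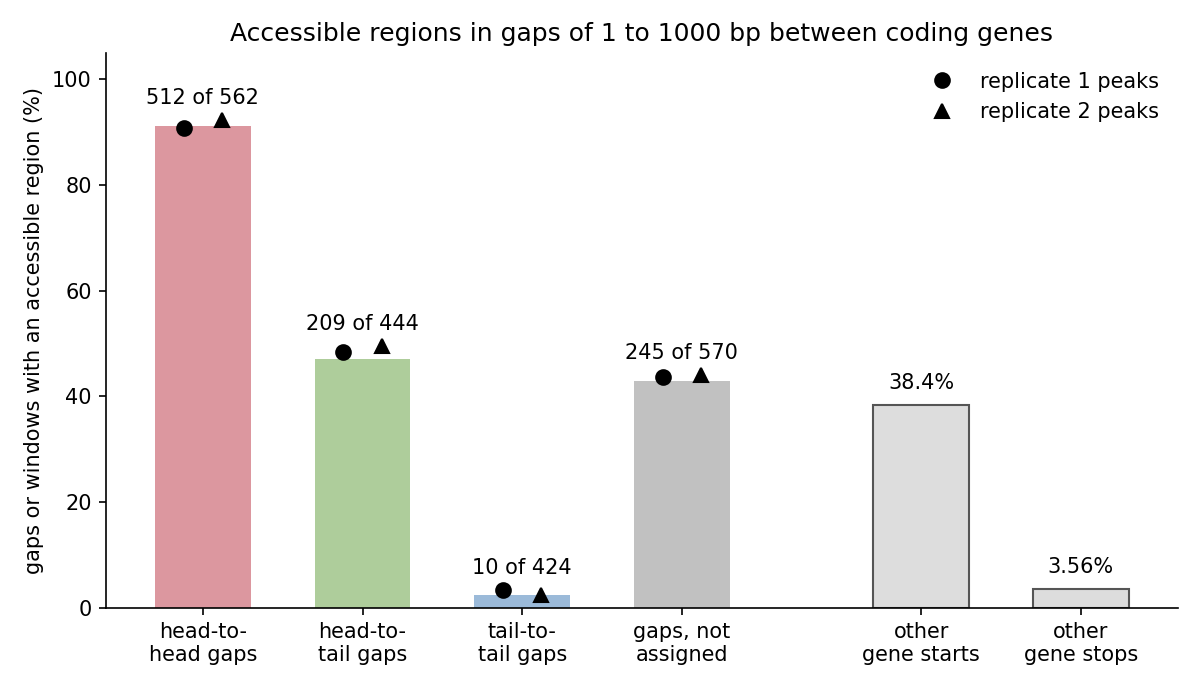
Bars give the percentage of close gaps with a shared region by orientation, and circles and triangles the percentage with a peak in replicate 1 and in replicate 2. The outlined bars at the right give the percentage of other coding gene starts (38.4%) and stops (3.56%) with a shared region from 1000 bp outside to 200 bp inside the gene; the head-to-head bar stands at 91.1% and the tail-to-tail bar at 2.36%.

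Presence or absence of a peak was the same in both replicates for nearly all close gaps. Neither replicate had a peak in 980 of the 2000 gaps, replicate 1 alone had a peak in 20 and replicate 2 alone in 32. In 410 of the 424 tail-to-tail gaps and in 43 of the 562 head-to-head gaps, no peak was listed in either sample. Since sites with fewer reads than the weakest listed summit are not in the lists, a gap without a peak was not detectably accessible at this depth and threshold.

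Head-to-head gaps were accessible at every length up to 500 bp. The share was 92.8% of 279 gaps of 1 to 100 bp, 90.7% of 161 gaps of 101 to 250 bp and 95.1% of 81 gaps of 251 to 500 bp. It was lower among the 41 gaps of 501 to 1000 bp, at 73.2% in each replicate. In head-to-tail gaps the shares in the same length classes were 35.1%, 56.4%, 44.0% and 48.7%. In tail-to-tail gaps they were 1.28%, 2.22%, 1.00% and 3.85%. The order of the 3 orientations was the same in each length class. The head-to-head gaps were the shortest, with a median of 102 bp, against 448 bp for head-to-tail and 378 bp for tail-to-tail gaps, so the classes were compared within lengths.

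**Figure D2:**
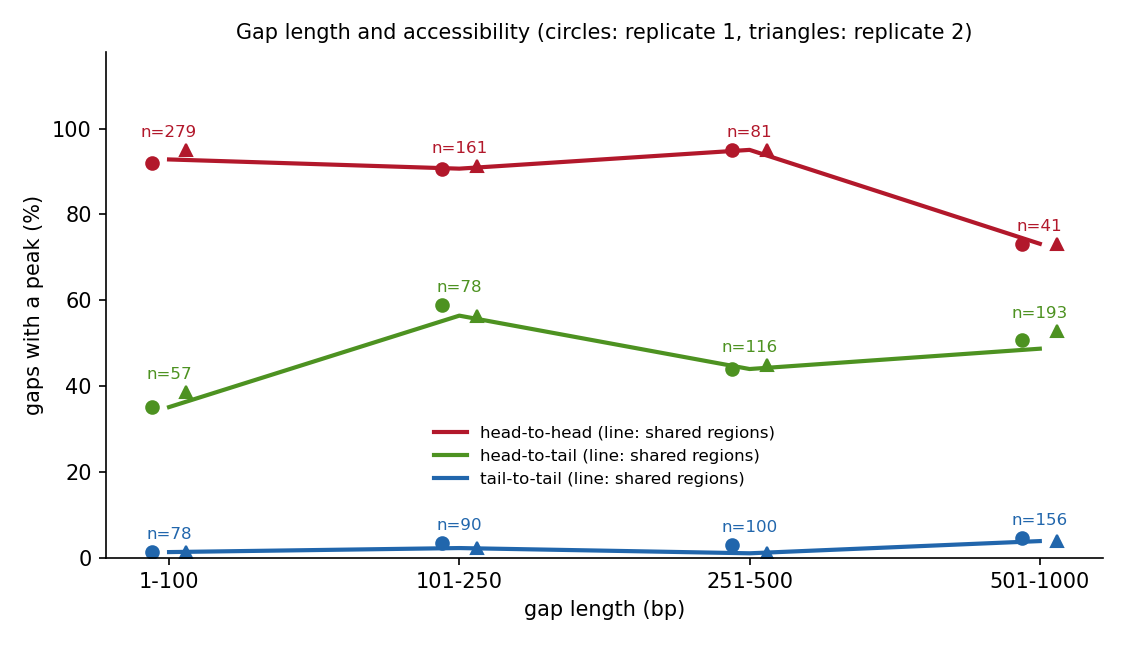
The percentage of close gaps with a peak is plotted against gap length for the 3 orientations; lines join the shares with a shared region, circles are replicate 1, triangles are replicate 2 and n is the number of gaps. Head-to-head gaps lie between 90.7% and 95.1% up to 500 bp and at 73.2% beyond, and the tail-to-tail line stays at 3.85% or less.

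In most head-to-head pairs a single shared region, merged from overlapping peaks of both replicates, took in both starts. The share covered by the peaks of 1 replicate alone is not given here. The best-scoring shared region covered both gene boundaries in 395 of 512 accessible gaps (77.1%), 1 boundary in 91 (17.8%) and neither, while lying wholly between the genes, in 2. In the other 24 (4.69%) it covered neither boundary and lay outside the gap. It covered both boundaries in 91.1% of gaps of 1 to 100 bp, 87.7% of gaps of 101 to 250 bp, 40.3% of gaps of 251 to 500 bp and none of the 30 gaps of 501 to 1000 bp. A region wider than the gap can readily cover both boundaries, and the median region in gaps of 1 to 100 bp was 322 bp wide. As the starts moved apart, the openness more often came in pieces. Of the accessible head-to-head gaps, 13.1% of the shortest class, 19.2% and 45.5% of the middle classes and 53.3% of the longest held at least 2 shared regions. In all, 113 head-to-head gaps held at least 2 (22.1%), against 29 head-to-tail gaps (13.9%) and no tail-to-tail gap. A longer window can hold more regions by its length alone, and the part of length in these counts was not tested.

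The gap with most regions held 4, and 6 gaps held 3, of which the 2 with the highest scores are named. The 705 bp gap between Cep57l1 and Sesn1, which encodes a stress-induced regulator of growth signalling, held the 4 regions. The strongest (chr10:41809557-41809754) was enriched 6.92-fold in replicate 1 and 7.26-fold in replicate 2, and the weakest (chr10:41810425-41810653) 4.19-fold and 4.05-fold. The 492 bp gap between Rita1 and Ddx54, which encodes an RNA helicase, held 3 regions, the strongest at chr5:120612821-120613206 with 8.13 and 7.56. The head-to-tail gap between Ppox, a gene for an enzyme of haem synthesis, and Usp21, for a deubiquitinase, also held 3, with 7.13 and 7.95 in the strongest.

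The widest shared regions at head-to-head gaps covered 996 bp at Dcaf6/Mpc2, 968 bp at B3galt6/Sdf4 and 917 bp at 1700056E22Rik/Dusp10. Mpc2 encodes a subunit of the mitochondrial pyruvate carrier and Dusp10 a phosphatase of stress kinases. At Dcaf6/Mpc2 the replicates placed their best summits far apart: the summit was inside Dcaf6 in replicate 1 (position -263 bp, counted from that gene's boundary towards Mpc2) and 300 bp into the gap in replicate 2. The shortest accessible head-to-head gaps were 1 bp long, between Gak and Tmem175 and between 1110032A03Rik and Fdxacb1. At Gak/Tmem175 a region of 396 bp had 8.67 in replicate 1 and 9.01 in replicate 2. The longest, between Pcgf2 and the proteasome gene Psmb3 (999 bp) and between Haghl and Ccdc78 (993 bp), each held 1 region near 1 of the starts.

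At the accessible head-to-head gaps the median distance of the best summit from the nearer gene boundary was 44.5 bp in replicate 1 and 35.5 bp in replicate 2. From the gap centre, a distance that depends on the length of the gap, it was 66.5 bp in replicate 1 and 60.8 bp in replicate 2. The summit lay between the genes in 44.9% of the gaps in replicate 1 and 47.3% in replicate 2, and in the others within 1 of the genes. The summits of the replicates lay a median of 23 bp apart, and 358 of 512 pairs of summits (69.9%) were within 50 bp of each other. Both summits fell between the gene boundaries in 187 gaps (36.5%), a share of 18.1% in gaps of 1 to 100 bp and 63.6% in gaps of 251 to 500 bp. At short gaps the summit of at least 1 replicate thus often lay within 1 of the genes. A short gap leaves little room for a summit between the genes, and the part of length in these shares was not tested.

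At head-to-tail gaps the summit was nearer to the gene that starts than to the gene that ends in 188 of 209 gaps in replicate 1 (90.0%) and 187 in replicate 2 (89.5%). Its median position was -22 bp in replicate 1 and -30 bp in replicate 2, where negative values lie in the gap before the start. The openness of such gaps therefore sat at the promoter side. At the 10 accessible tail-to-tail gaps the median distance from the gap centre was 244 bp in replicate 1 and 213 bp in replicate 2. Gene boundaries are the outermost ends of all annotated transcripts, and the RefSeq promoter sequence placed the start within 50 bp of the boundary used here for 77.0% of the head-to-head starts.

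**Figure D3:**
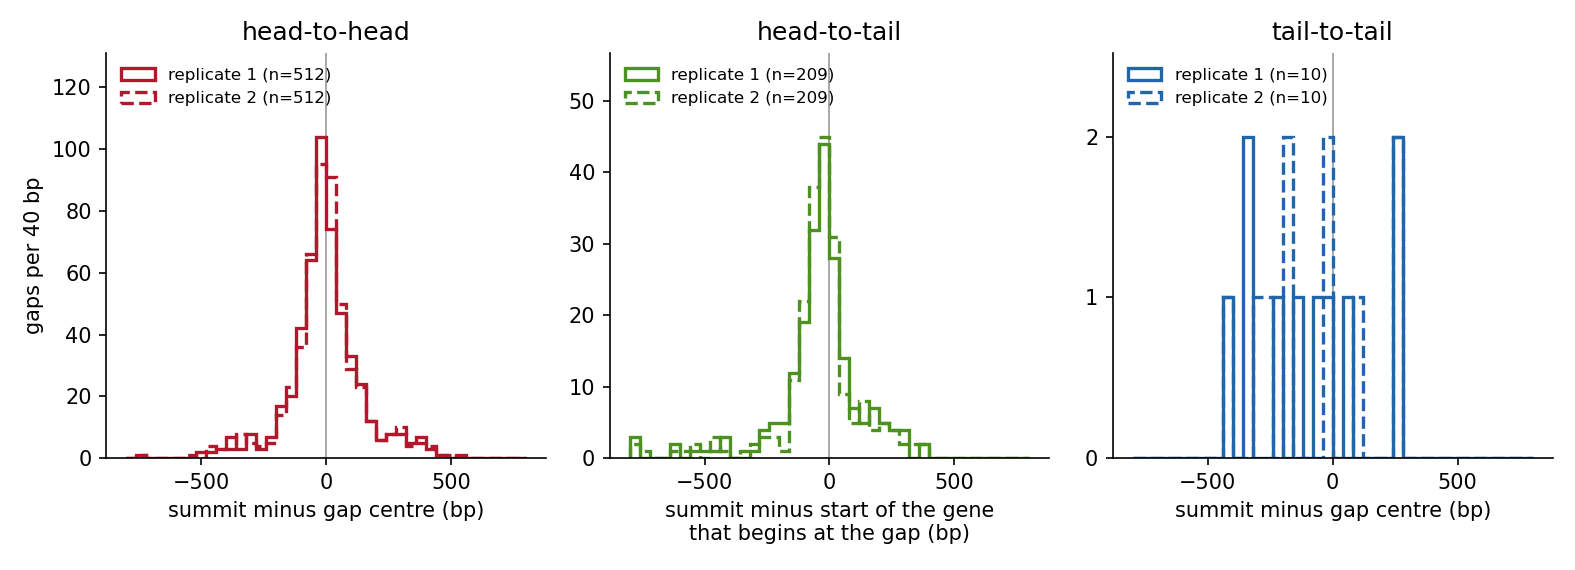
Histograms show the number of accessible gaps per 40 bp against the position of the best summit, measured from the gap centre for head-to-head and tail-to-tail gaps and from the start of the gene that begins at the gap for head-to-tail gaps (negative: in the gap); solid lines are replicate 1 and dashed lines replicate 2. Head-to-head summits spread to both sides of the centre (median distance 66.5 and 60.8 bp), at a median of 44.5 and 35.5 bp from the nearer gene boundary, and the median head-to-tail summit lies 22 and 30 bp before the start.

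Accessible head-to-head gaps were also more strongly enriched and wider than the run of shared regions. Each gap was represented by its best-scoring region, whereas every shared region entered the comparison, which favours the gaps. The deposited fold enrichment, the ratio of reads at a summit to the local background of its library, had a median of 8.33 in replicate 1 and 8.62 in replicate 2 over the 512 gaps, against 7.22 and 7.59 over all shared regions. The median width was 349 bp, against 198 bp over all. The median summit held 25 reads in replicate 1 and 36 in replicate 2, against 17 and 25. In 86 gaps (16.8%) the region stood above percentile 90 of both lists by score, against 7.53% of all shared regions. At the low end, 11 gaps (2.15%) were below percentile 10 in at least 1 list, against 11.0% of all. The shared regions include many that are not at gene starts. Other accessible coding starts lay nearer to the head-to-head gaps, with median folds of 8.07 in replicate 1 and 8.44 in replicate 2 and a width of 303 bp.

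The other assigned orientations were weaker, and gaps of unassigned orientation had medians of 7.97 in replicate 1 and 8.09 in replicate 2, with a width of 326 bp. Head-to-tail gaps had medians of 7.29 in replicate 1 and 7.46 in replicate 2, with a width of 268 bp, and the 10 tail-to-tail gaps had 6.79 and 6.58, with a width of 190 bp. Across the 512 head-to-head gaps the folds of the replicates had a Spearman rho of 0.79, a description over sites that share 2 libraries. The fold was higher in replicate 2 in 308 gaps and higher in replicate 1 in 204, with a median ratio of replicate 2 to replicate 1 of 1.04. The folds of the replicates are not strictly on the same scale because their depths differ. Most values lay near each other, with the middle range of that ratio from 0.936 to 1.16.

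**Figure D4:**
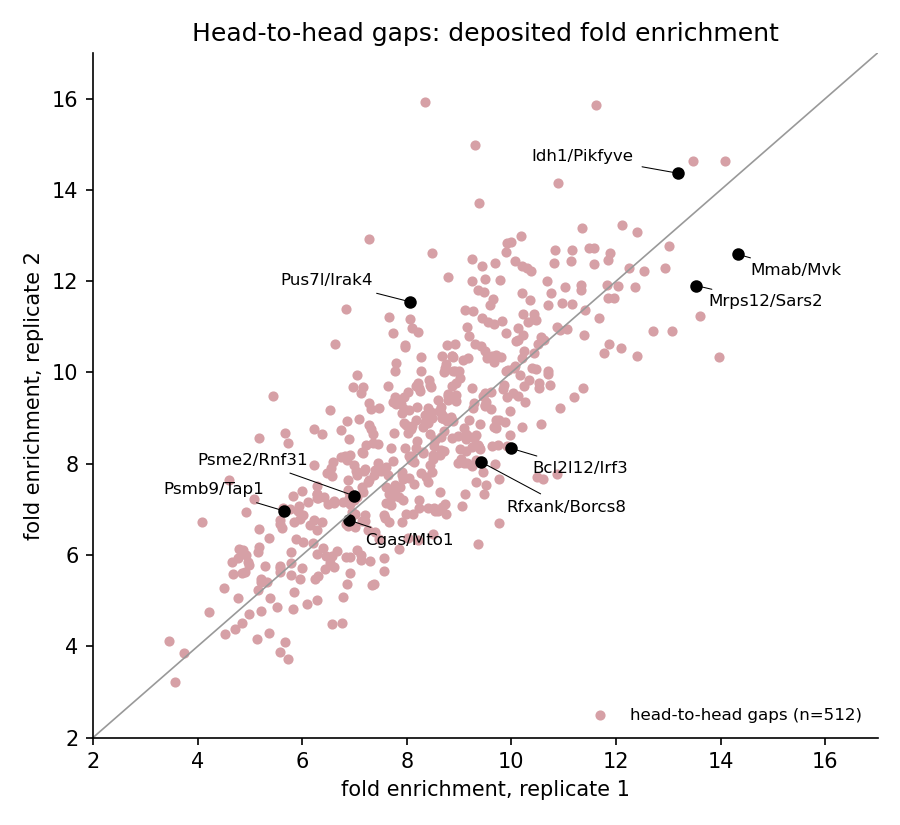
Each point is 1 of the 512 accessible head-to-head gaps, with the deposited fold enrichment of its best region in replicate 1 on the x axis and in replicate 2 on the y axis; the line marks equal values and black points are named pairs. Mmab/Mvk, Mrps12/Sars2 and Idh1/Pikfyve lie near the top in both replicates, and Psmb9/Tap1 (5.66 and 6.96) and Cgas/Mto1 (6.89 and 6.77) lie in the lower part.

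Among the 12 pairs with the highest scores in both lists, Blzf1/Nme7 had 13.0 in replicate 1 and 12.8 in replicate 2, and Trappc11/Rwdd4a had 11.5 and 12.7. Hs2st1/Selenof, a gene for a heparan sulfate sulfotransferase beside one for a selenoprotein of the endoplasmic reticulum, had 11.8 and 11.6. Tmed5/Ccdc18, of which Tmed5 encodes a protein of vesicle transport, had 11.9 and 12.5. At each of these the value of both replicates was above the medians of all head-to-head gaps, which goes with their choice by score.

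Idh1 encodes the cytosolic isocitrate dehydrogenase and Pikfyve a lipid kinase of endosomes. The region at their gap (chr1:65186352-65186824, 473 bp wide around the 160 bp gap) had 13.2 in replicate 1, with 37 reads at the summit, and 14.4 in replicate 2, with 56. Mmab, for an enzyme that makes the active form of vitamin B12, and Mvk, for mevalonate kinase of cholesterol synthesis, shared a region (chr5:114443957-114444358) with 14.3 and 12.6. Among the 512 gaps the Mmab/Mvk fold was the highest of replicate 1. The remaining pairs of the 12 that scored highest were 1700029J07Rik/Ufsp2, 6030458C11Rik/Drosha, Ttc13/Arv1, Nudt21/Ogfod1, Ormdl2/Sarnp and Pinlyp/Xrcc1. Drosha encodes the nuclease that begins microRNA processing, Nudt21 a factor of mRNA 3′ end cleavage and Xrcc1 a scaffold of single-strand break repair.

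Antigen presentation had 10 close gaps with a gene of the list, and 7 were accessible, beside 48.8% of all close gaps. All 3 head-to-head gaps were among them, beside 91.1% of all head-to-head gaps. The region at Psmb9/Tap1 (chr17:34187261-34187870) was 610 bp wide and covered the whole 225 bp gap shown above. Its fold enrichment was 5.66 in replicate 1, with 26 reads, and 6.96 in replicate 2, with 39. The best summit lay 104 bp into the gap from Psmb9 in replicate 1, and 357 bp from Psmb9, within Tap1, in replicate 2. Both folds were below the medians of the head-to-head gaps.

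Tap1 is followed by Psmb8, which encodes another immunoproteasome subunit, and the 969 bp gap at the start of Psmb8 held 2 regions. The stronger (chr17:34197557-34197807) had 9.69 in replicate 1 and 7.35 in replicate 2. Its summits lay 455 bp and 425 bp from the end of Tap1, and 515 bp and 545 bp before the start of Psmb8. The weaker (chr17:34198237-34198399) had 6.19 and 5.22 and lay within Psmb8, past its annotated start. The run Psmb9-Tap1-Psmb8 was thus accessible in both of its gaps.

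Psme2, for a subunit of the interferon-induced proteasome activator, starts 611 bp from Rnf31, for the catalytic subunit of the linear ubiquitin ligase that acts in NF-kB signalling. A region stood at each start, with 6.99 in replicate 1 and 7.30 in replicate 2 at Psme2 (chr14:55591012-55591227) and 7.14 and 8.58 at Rnf31 (chr14:55591537-55591878). Rfxank, for a subunit of the RFX complex that binds promoters of MHC class II genes, shared a region of 726 bp with Borcs8 (chr8:70139034-70139759), with 9.42 and 8.04. Tapbp, for tapasin of the peptide-loading complex, had low values at its start (4.89 and 4.88 at Zbtb22/Tapbp) and at its end, where Rgl2 starts (4.09 and 4.95). No shared region lay at Maml1/Canx, at Psme3/Aoc2, which had a peak of 5.07 in replicate 1 alone, or at the tail-to-tail pair Pdia3/Ell3. At Tapbpl/Cd27, whose orientation was not assigned, the values were 7.43 and 8.76.

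Genes of the interferon response and of nucleic acid sensing flanked 18 close gaps, of which 11 were accessible. These were 4 of 4 head-to-head, 3 of 4 head-to-tail, 1 of 6 tail-to-tail and 3 of 4 unassigned gaps. Over all close gaps the shares were 48.8% in all, 91.1% head-to-head, 47.1% head-to-tail, 2.36% tail-to-tail and 43.0% unassigned. Irf3, which encodes a factor activated by nucleic acid sensing, starts 9 bp from Bcl2l12, for a member of the Bcl2 family. Their region (chr7:44997563-44997714) was 152 bp wide, with 10.0 in replicate 1 and 8.34 in replicate 2 and summits 2 bp apart. At its other end Irf3 meets Scaf1 tail-to-tail over 97 bp, and no peak was listed there in either replicate.

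Irf9, for the DNA-binding subunit of the complex that carries the type I interferon signal, starts 310 bp after the end of Rnf31. The region there (chr14:55603967-55604262) had 8.54 in replicate 1 and 9.25 in replicate 2. Its summits lay 410 bp and 398 bp from the end of Rnf31, which is within Irf9, so most of the open stretch lay past the 250 bases shown above. Both gaps of the run Psme2-Rnf31-Irf9 were accessible. Irf7, which encodes the factor that amplifies interferon production, ends beside Phrf1, and that 431 bp tail-to-tail gap had no peak in either replicate.

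Cgas, for the sensor of cytosolic DNA, starts 241 bp from Mto1, for an enzyme that modifies mitochondrial transfer RNA. The shared region (chr9:78443103-78443375) covered the Cgas boundary and not that of Mto1, with 6.89 in replicate 1 and 6.77 in replicate 2. Irak4, for a kinase below Toll-like receptors, shared a region with Pus7l (chr15:94543435-94544069), with 8.06 in replicate 1, where the summit held 27 reads, and 11.5 in replicate 2, where it held 62. The values of the replicates lay further apart there than at most head-to-head gaps. Tbk1, for the kinase that phosphorylates IRF3, starts at the gap to Xpot, with 6.32 and 7.80.

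Trex1, for the exonuclease that removes cytosolic DNA, had weak regions at both of its ends. At Trex1/Atrip, where Trex1 starts, the folds were 4.67 in replicate 1 and 3.85 in replicate 2. At Shisa5/Trex1, the accessible tail-to-tail gap of this list, they were 4.87 and 5.37. Of the unassigned gaps, Dhx58/Kat2a, beside the RNA sensor LGP2, had 5.71 and 5.27, Ifnar2/Il10rb, a pair of cytokine receptor genes, had 6.39 and 6.49, and Sharpin/Maf1 had 7.85 and 8.23. No peak was listed in either replicate at Xaf1/Fbxo39, Cyc1/Sharpin, Ifi35/Vat1, Tldc2/Samhd1 or Uba7/Inka1. The last 3 are tail-to-tail, so the gaps of these interferon-induced genes lie away from their starts.

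Of the genes listed for dendritic cell identity and maturation, 2 flanked a close gap, and in both it was the end of the gene. Xcr1, for the chemokine receptor that marks cDC1, ends at the gap where Fyco1, for an adaptor of vesicle transport, starts. The region there (chr9:123851771-123852211) had 7.20 in replicate 1 and 6.91 in replicate 2. Nfkbie, for an inhibitor of NF-kB, ends where Slc35b2 starts, with 5.77 and 6.35. In neither case did the close gap contain the start of the dendritic cell gene.

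Lists of genes that most cells use were counted in the same way. For the mitochondrial ribosome and respiration, 45 of 45 head-to-head gaps were accessible, with median folds of 8.40 in replicate 1 and 8.68 in replicate 2. For RNA polymerase and splicing it was 35 of 35, with 7.57 and 7.97. DNA replication and repair had 19 of 20 (9.13 and 9.28), and Zfp zinc finger genes, which encode mostly DNA-binding proteins, had 12 of 13 (8.55 and 8.92). The counts for the proteasome with chaperones were 15 of 17 and those for cytosolic ribosomal proteins 9 of 10. All of these stand beside 512 of 562 over all head-to-head gaps, and the lists did not set their members apart from that share.

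The histone gaps were accessible as often, in 9 of 10 head-to-head gaps, but their values were low, with median folds of 5.16 in replicate 1 and 5.63 in replicate 2. The histone pair without a region was H2bc1/H2ac1, whose genes encode variants made in the testis. Near-identical histone genes can share reads, so their folds depend on how the authors placed such reads. In the tail-to-tail gaps of the same lists a region was found at 0 of 15 mitochondrial, 0 of 11 proteasome and chaperone, 0 of 10 zinc finger, 0 of 8 ribosomal and 1 of 16 RNA polymerase and splicing gaps. The contrast between orientations was thus present within each of these 5 lists, whereas the 1 histone tail-to-tail gap was accessible. Families restricted to other tissues, such as olfactory receptors, keratins and collagens, had 6 of 41 close gaps accessible (14.6%), beside 48.8% of all close gaps. Only 1 of the 41 is head-to-head, and it had no peak, while 13 are tail-to-tail, so the mix of orientations differs from that of all close gaps. These families were taken by the start of the gene symbol, which also took in Scnm1, a gene for a splicing factor of no such family, at 2 of the 41 gaps and at 1 of the 6 accessible ones (Scnm1/Lysmd1).

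Among the strongest pairs of these lists, Mrps12, for a protein of the mitochondrial ribosome, and Sars2, for the mitochondrial seryl-tRNA synthetase, had 13.5 in replicate 1 and 11.9 in replicate 2 in the main region of their 135 bp gap (chr7:28741763-28742081). Pinlyp/Xrcc1 had 13.5 and 14.6, with a region that lay wholly within Xrcc1, and Xrcc3/Zfyve21 had 10.2 and 11.7. Xrcc3 acts in homologous recombination. Rps27/Rab13 had 11.8 and 10.4, and Med29/Paf1, for subunits of the Mediator and of an elongation complex, had 11.8 and 11.9. Hspa1a/Hspa1l, a pair of heat shock protein genes, held 2 regions, the stronger with 11.6 and 12.4.

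Each start was also compared with other starts in a window of fixed length, from 250 bp before to 50 bp after it. A shared region touched 998 of 1124 starts in head-to-head gaps (88.8%), with 88.7% in replicate 1 and 90.3% in replicate 2. It touched 5802 of 16150 other coding starts (35.9%), with 36.0% in replicate 1 and 37.7% in replicate 2, and the share over all coding starts was 39.4%. The other coding starts include those at close gaps of unassigned orientation, some of which may be head-to-head. Of the other coding starts, 567 had a head-to-head partner that is a non-coding gene within 1000 bp, and 326 of these were accessible (57.5%), against 35.1% of those without. Starts with a head-to-head coding partner were thus accessible more often than both. The 2 starts of a gap often share a region, so they are not independent. The median head-to-head gap was 102 bp long, so the 250 bp before such a start often contain the partner's start as well. The windows of other starts were not chosen to hold 2 starts, and the part of the second start in the contrast was not tested.

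The head-to-head starts were richer in CpG. Their RefSeq promoter sequences of 300 bases had a median observed over expected CpG ratio of 0.84 and a median GC content of 61.7%, against 0.55 and 56.0% for other coding starts. Over all coding starts, the transcription start that the promoter sequence is built on lay within 50 bp of the gene boundary used for the window in 72.4% of genes. Accessibility moved with CpG in both sets. Below a ratio of 0.3, a shared region touched 36.7% of 60 head-to-head starts, against 6.10% of 5347 other starts. Between 0.3 and 0.6 the shares were 74.8% of head-to-head and 26.3% of other starts, between 0.6 and 0.8 they were 89.0% and 54.1%, between 0.8 and 1 they were 95.5% and 66.1%, and from 1 upwards 96.1% and 68.6%. Within each CpG class the head-to-head share was the higher, in both replicates, for windows that often hold both starts of a pair. The part of CpG content in the contrast was not tested.

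**Figure D5:**
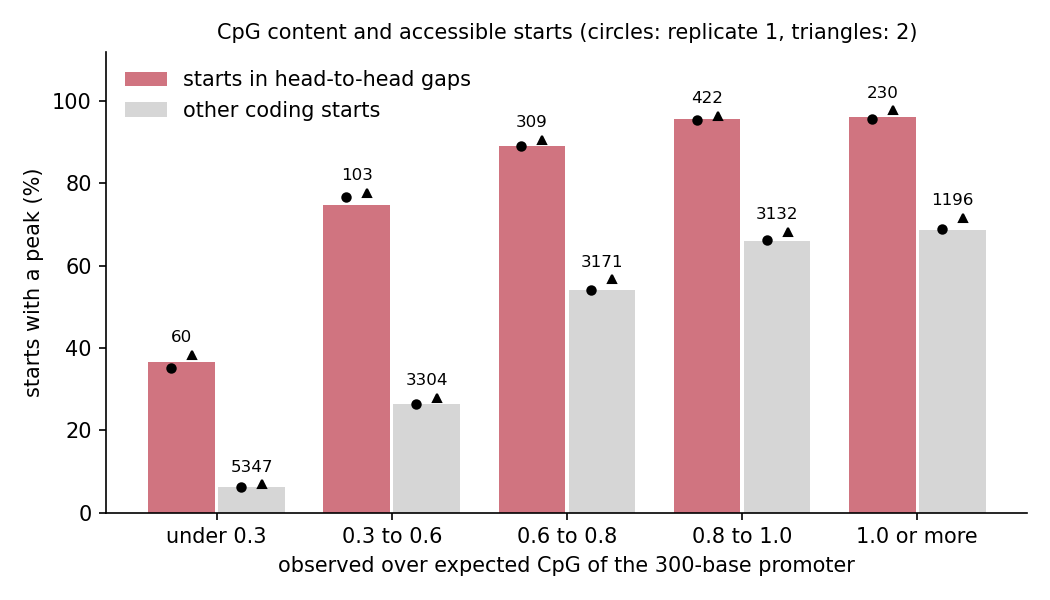
Bars give the percentage of starts with a shared region in classes of the observed over expected CpG ratio of the 300-base promoter, for starts in head-to-head gaps and for other coding starts; circles and triangles give the percentages with a peak in replicate 1 and in replicate 2, and the numbers are starts per class. The head-to-head bars are higher in each class, from 36.7% against 6.10% below 0.3 to 96.1% against 68.6% at 1 or more. The window of a head-to-head start often contains the partner's start too.

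Accessible starts of the 2 sets had nearly the same strength. The median fold was 8.31 in replicate 1 and 8.57 in replicate 2 at head-to-head starts, and 8.07 and 8.44 at other coding starts. Their regions were 342 bp wide in the median at head-to-head starts and 303 bp at other starts. Starts without a listed region have no fold, so these medians cover only starts that passed the authors' threshold. Whether the sets also differ in strength below it cannot be told from these lists.

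The promoter sequences were searched on both strands for the letters of 11 short motifs, 3 of them in a further form, and the share of promoters with at least 1 match was counted. CCGGAAG, bound by ETS factors, occurred in 27.0% of 1124 head-to-head promoters, against 11.0% of 16150 other promoters and 12.1% of all. GCGCNTGCG, from the palindrome bound by NRF1, a regulator of nuclear genes for mitochondria, occurred in 21.5%, against 8.25% of other and 9.12% of all promoters. AANATGGC, bound by YY1, occurred in 12.9%, against 6.28% and 6.71%. GGGCGG, the GC box of Sp factors, occurred in 66.0%, against 45.6% and 46.9%. CCAAT, bound by NF-Y, occurred in 46.1%, against 39.1% and 39.6%. TATAAA went the other way, with 5.60% of head-to-head promoters, against 14.0% of other and 13.4% of all promoters.

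Much of this is shared by accessible promoters in general. Among accessible starts the GC box was found in 68.3% of head-to-head and 68.8% of other promoters, and TATAAA in 4.71% of head-to-head and 6.27% of other promoters. The ETS letters still occurred in 28.9% of accessible head-to-head promoters, against 21.5% of accessible others, and the NRF1 letters in 22.8%, against 16.1%. The YY1 letters occurred in 13.5%, against 9.84%, and CCAAT in 45.9%, against 42.3%. Without regard to accessibility, the motifs of induced immune genes showed no common direction. GAAANNGAA, from the interferon-stimulated response element, occurred in 6.76% of head-to-head promoters, against 8.28% of other and 8.19% of all promoters. TTCNNNGAA, the gamma-activated site, occurred in 8.10% of head-to-head promoters, against 7.85% of other and 7.87% of all. GGGANTTCC, read by NF-kB, occurred in 3.11%, against 1.77% and 1.86%, and TGANTCA, bound by AP-1, in 3.74%, against 7.33% and 7.09%. With more free bases in the centre, the NF-kB letters occurred in 24.1% of head-to-head and 22.8% of other promoters. With 1 more fixed base, the NRF1 letters occurred in 17.5% of head-to-head and 5.99% of other promoters, and those of the interferon element in 3.11% of head-to-head and 3.46% of other promoters. The shorter forms of these 3 were chosen after the others had been counted. TGACGTNA, the core of the cyclic AMP response element, was found in 6.05% of head-to-head promoters, against 3.48% of other and 3.65% of all. Among accessible starts it was found in 6.41% of head-to-head and 6.46% of other promoters. Head-to-head promoters share bases between the 2 genes, matches to GC-rich letters rise with base composition, and matches of different motifs can overlap.

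No shared region was found at 50 head-to-head gaps, of which 43 had no peak and 7 had a peak in replicate 2 alone. Pairs named from these 50 were chosen after their values were seen and do not stand for all 50. Genes that most cells use were among the 50 too. Rnf151/Rps2, with a gene for a cytosolic ribosomal protein, had no peak, and the nearest shared region lay 1709 bp away. Gnl3/Pbrm1 had a peak of 4.89 in replicate 2 alone, with the nearest shared region 207 bp away. Wfdc3/Dnttip1 had a peak of 9.65 in replicate 2 alone. Duox2/Duoxa2 encode the thyroid enzyme that makes hydrogen peroxide and its maturation factor, and the nearest shared region lay 49661 bp away. Bhmt2/Dmgdh encode enzymes of methyl group metabolism in the liver, with the nearest region 71201 bp away. Kirrel2/Nphs1, whose Nphs1 encodes nephrin of the kidney filter, had its nearest region 35094 bp away, and Smc1b/Ribc2, whose Smc1b encodes a meiotic cohesin, its nearest 55359 bp away.

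Peg3/Usp29, an imprinted pair, lay 82668 bp from the nearest shared region, the olfactory receptor pair Olfr181/Olfr183 lay 66648 bp away and the urinary protein pair Mup15/Mup-ps12 lay 736818 bp away. The median distance from the 50 gaps was 15168.5 bp, and 27 of them were over 10000 bp away. Another 5 of the 50 lay within 1000 bp of a shared region. In 12 of the 50, another RefSeq start of 1 of the genes did have a shared region. At Stat5b/Stat5a, for a pair of cytokine signal transducers, the 346 bp gap had no peak, the nearest shared region was 868 bp away, and such another start was accessible. Of these 50 gaps, 6 involve a predicted or clone gene, and the Mup and olfactory receptor genes have near-identical copies whose reads cannot always be placed.

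At the 10 accessible tail-to-tail gaps the folds ran from 3.24 to 9.69 in replicate 1 and from 3.05 to 10.0 in replicate 2. The 4 highest by score lay at Cd63/Rdh5, Duox1/Shf, Muc1/Trim46 and Atxn2/Sh2b3. Cd63 encodes a tetraspanin of late endosomes, and its region (chr10:128913357-128913523) had 8.09 in replicate 1 and 9.58 in replicate 2. Duox1/Shf had 8.56 and 10.0 (chr2:122348560-122349051), Muc1/Trim46 had 9.69 and 7.91 (chr3:89233527-89233704), and Atxn2/Sh2b3, of which Sh2b3 encodes an adaptor that restrains cytokine signalling, had 7.20 and 5.38. An annotated RefSeq start lay within 500 bp in 1 of the 10, the histone pair H2ac21/H2ac20, whose region had the lowest folds (3.24 and 3.05). These regions were narrow, 190 bp in the median, and a peak in replicate 1 alone was found at 4 further gaps.

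The strongest head-to-tail gaps reached the values of the strongest head-to-head gaps. G2e3/Scfd1, at the start of Scfd1, which encodes a protein of vesicle fusion, had 15.8 in replicate 1 and 14.8 in replicate 2 (chr12:51377328-51377660). Clip3/Alkbh6 had 14.6 and 13.4, Ddt/Gstt3 had 13.9 and 14.2, and Clpp/Alkbh7 had 11.8 and 11.5. Of all close gaps, 178 held at least 2 shared regions. Close gaps were spread unevenly over the genome, from 4.31 per 100 coding genes on chromosome 18 and 4.35 on X to 13.9 on chromosome 17, which carries the major histocompatibility complex. The share of accessible head-to-head gaps ran from 80.0% of 15 on X to 100% of 20 on chromosome 12, and was 94.4% of 36 on chromosome 17.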

How the data were processed

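ATAC-seq peak lists of 2 samples of unstimulated CD8-positive dendritic cells were used; both form 1 group. Per the submitters' processing notes, build mm10 and the tools MACS2, HOMER 4.9.1, Picard 2.8.1, BWA 0.7.17 and Trimmomatic were used, in roles that are not stated. Read shifting, duplicate removal and the threshold are not given in the sources used here, and each affects which weak sites are listed. The deposited lists give for each summit a score, a fold enrichment (a ratio to local background), a −log10 p and a −log10 q, all made by the authors per sample; the lowest −log10 q was 3.00 in each list. These describe or rank peaks within a list only. Positions are as deposited, turned to 1-based.

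Summits of a peak were joined (13 without position in replicate 1 were kept with their peak) and overlapping peaks of both replicates (1 bp or more) merged, with pandas 2.3.3, scipy 1.17.1 and numpy 2.4.6 under Python 3.11.15; figures used matplotlib 3.10.9. Reads at summits were recovered as the whole number that best fitted the fold and the Poisson p. The −log10 p was met within 0.002 for 100% of summits. The joining of peaks and genes was tested on simulated data. Gene ends came from the RefSeq table of GRCm38.p6, the same assembly as mm10, and strand and 300-base promoters from RefSeq promoter sequences of that build. Exons, introns and UTRs were not assigned. A gene's start is its outer end on the strand side.

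Members, lists, motifs and named pairs were chosen with earlier results of these data known. Named pairs are the best-scoring gaps per orientation (12 head-to-head, 4 tail-to-tail, 4 head-to-tail), all gaps of the antigen presentation, interferon and dendritic cell lists, the 2 best and the 2 longest peakless gaps of each other list, and the extremes of length, width and region number. No test was made, since the samples form 1 group and members are not replicates. Alternatives were the widening, longest gap, overlap rule, score threshold, start window, gene filters and leaving out each replicate. The chromatin immunoprecipitation samples were not analysed here.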

Additional observations from a re-analysis of the deposited data

How the results depend on the processing

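Shares with a shared region are given below for head-to-head, head-to-tail, tail-to-tail and all close gaps, in that order, where they moved by more than the spread of the replicates. Without widening they were 89.7%, 41.9%, 1.65% and 46.3%. Widening by 500 bp gave 49.5% of head-to-tail, 3.77% of tail-to-tail and 50.6% of all gaps. With a longest gap of 500 bp they were 92.5%, 45.8%, 1.49% and 54.8%, and with 2000 bp 89.8%, 48.0%, 4.23% and 44.6%. A reciprocal overlap of 50% gave 83.5% of head-to-head, 44.6% of head-to-tail and 44.95% of all gaps. With the better-scoring 50% of each list they were 73.3%, 30.9%, 0.708% and 37.3%. A summit of each replicate in the widened gap gave 89.9% of head-to-head, 44.1% of head-to-tail and 47.3% of all gaps, and leaving out predicted and clone genes gave 48.2% of head-to-tail gaps. Head-to-head against other coding starts stood at 91.5% against 39.0% with 1000 bp before to 200 bp after the start, at 80.7% against 32.4% with the reciprocal overlap, at 70.8% against 26.0% in the better-scoring 50%, and at 86.1% against 40.6% with the start of the promoter table, an alternative chosen after seeing the data. Head-to-head starts stood at 87.5% with 100 bp on each side, at 91.3% with gaps up to 500 bp and at 85.0% with gaps up to 2000 bp. The better-scoring 50% had median folds of 8.77 in replicate 1 and 9.12 in replicate 2 and 39.8% of best summits between the genes, and gaps up to 500 bp had 34.9%. With 1 replicate at a time, the ranges were 90.7% to 92.3% (head-to-head), 48.4% to 49.5% (head-to-tail), 2.36% to 3.30% (tail-to-tail), 49.4% to 50% (all), 88.7% to 90.3% (head-to-head starts) and 36.0% to 37.7% (other starts). In all, 49 of 82 recomputed values moved by more than the spread of the replicates, and the order of the 3 orientations was the same under each alternative. The part of depth in the 980 gaps without a peak was not tested. No paired analysis was possible because the ATAC-seq samples form a single group.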
